A study of Mus musculus with 9 samples.

Results

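The genes described here are 43 genes of the glutathione, thioredoxin and antioxidant enzyme systems of the mouse, together with the regulators of these systems and a pair of subunits of the phagocyte NADPH oxidase. They were listed by gene name with no threshold on a measured value, though earlier results of these data were known when the list was drawn up. All 43 were among the 20731 gene symbols in the count data, and all 43 had enough counts to be tested, among 14746 genes tested in all. RNA was sequenced from the brain of 9 male C57BL/6J mice aged 8 to 10 weeks, 3 mice in each of 3 groups, on day 2 after surgery. The mice of the CVST group had cerebral venous sinus thrombosis, induced with ferric chloride on the superior sagittal sinus. Mice of the CVST+Ligation group had the same thrombosis with ligation of the deep cervical lymph nodes, which receive lymph drained from the meninges. In the 4-PBA group, thrombosis and ligation were combined with 100 mg/kg 4-phenylbutyric acid, a chemical chaperone that lowers endoplasmic reticulum stress, injected into the abdomen. Per the methods it was given 30 min before modelling, while the series description places it after ligation. Every group therefore carried a thrombosis, no library of a mouse without one was analysed here, and which controls received solvent is not clear from the sources used here. The labels give the tissue as brain and the series description as cortex.

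Cells remove peroxides along a pair of parallel routes. Glutathione peroxidases use glutathione, which glutathione reductase returns to its reduced form with NADPH, whereas peroxiredoxins are reduced by thioredoxin, which thioredoxin reductase recharges with NADPH in turn. Superoxide dismutases turn superoxide into hydrogen peroxide and catalase breaks hydrogen peroxide down. Glutathione transferases attach glutathione to reactive compounds. The transcription factor NRF2, encoded by Nfe2l2, is held down by KEAP1 and, when released, binds antioxidant response elements near many of these genes. The phagocyte NADPH oxidase works the other way and makes superoxide. In the brain, astrocytes hold much of the glutathione system and microglia much of this oxidase.

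The antioxidant response element has a core of letters, TGACNNNGC, in which N is any base, and 5 of the genes that carry it are shown because NRF2 control is the regulatory feature that many of these genes are known for. The core was searched on both strands of the RefSeq promoters of build GRCm38.p6, which run from 250 bases before to 50 bases after a gene's start. Of the 43 genes, 37 matched a listed promoter, and 11 of these 37 (29.7%) held the core, against 3781 of 27025 genes (14.0%) in the whole table. The matched letters are in capitals with 10 bases on either side, and each run is printed on the strand on which the core reads forward.
Prdx1, chr4:116685456-116685484, minus strand: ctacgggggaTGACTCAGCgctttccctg
Gclm, chr3:122245413-122245441, minus strand: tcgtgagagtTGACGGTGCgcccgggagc
Txnrd1, chr10:82859104-82859132, minus strand: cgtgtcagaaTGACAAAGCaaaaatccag
Nfe2l2, chr2:75704885-75704913, minus strand: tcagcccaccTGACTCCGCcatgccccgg
Sod1, chr16:90220696-90220724, minus strand: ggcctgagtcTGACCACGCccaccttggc
The Prdx1 core also contains the AP-1 letters TGANTCA. Distances are to the start of the RefSeq transcript to which the promoter belongs. The core lay 133 bases before that start for Prdx1, which encodes the most abundant peroxiredoxin here, 134 for Gclm, the modifier subunit of the enzyme that starts glutathione synthesis, 240 for Nfe2l2 and 56 for Sod1. For Txnrd1, the cytosolic thioredoxin reductase, it lay 92 bases before an internal start, inside the gene as GENCODE draws it and outside its exons. The other genes with a match were G6pdx, Ggt1, Gstm5, Gstm7, Mgst1 and Srxn1, and the window around the core touched or lay within the GENCODE gene in each of these. A match describes these letters in this window and is not evidence of binding.

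Each library held 18100739 to 25091498 counts assigned to genes, so that 3 counts, the limit that a count of 0 allows, corresponded to 0.114 to 0.163 CPM, the counts scaled to a common library size. Intervals of this kind cover counting error only. Levels within a gene are given as CPM adjusted by the trimmed mean of M-values, and levels between genes as FPKM, the counts divided by transcript length and library total. Markers of brain regions differed between the groups and between libraries. The summed level of 8 midbrain dopamine genes was 18.02 to 19.5 CPM in CVST, 169 to 207 in CVST+Ligation and 226 to 230.1 in 4-PBA, and that of 8 striatal genes was 1053 to 1772, 195 to 515 and 254 to 1281. The list of 8 cerebellar genes summed to 1428 CPM in CVST+Ligation replicate 2 and to 142 to 267 in the other libraries. The neuronal list of 12 genes summed to 7900 to 8977 CPM in CVST, 7398 to 8098 in CVST+Ligation and 6151 to 8056 in 4-PBA. No marker list had a gene at 0 in every library. The part of region in the differences below was not tested. The labels number the libraries of a group and say no more of how they were taken, so p-values measure only the spread between these libraries.

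Transcript level spanned a wide range within the system. The highest mean FPKM over the 9 libraries was that of Prdx1 at 564, followed by Prdx2, another cytosolic peroxiredoxin, at 507 and Sod1, the copper-zinc superoxide dismutase, at 459. The median of the 43 genes was 43.8 FPKM. The lowest were Ggt1, which breaks down extracellular glutathione, at 1.55 and Cybb, the membrane subunit of the phagocyte oxidase, at 0.166. Mean FPKM was 325.6 for Gpx4, the peroxidase of membrane lipid peroxides, against 36.1 for Gpx3, the secreted peroxidase. It was 393 for Gstm1, a glutathione transferase of the mu class, and 300.4 for Txn1, the cytosolic thioredoxin. The median SD within groups was 0.247 on the log2 scale for these genes and 0.2995 for all genes tested.

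**Figure D1:**
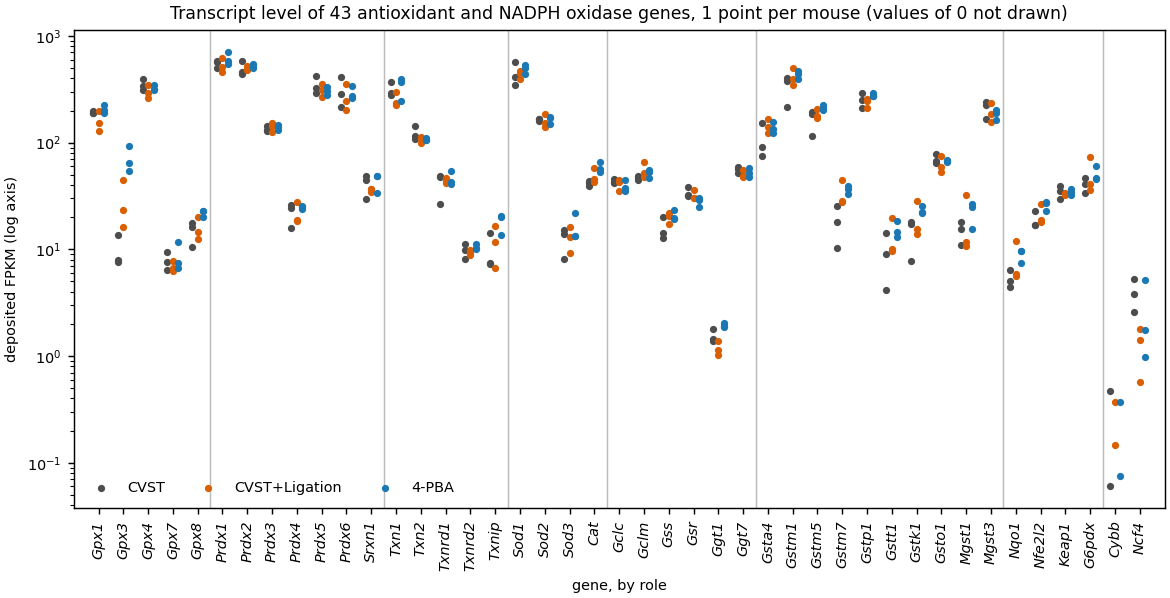
Deposited FPKM of the 43 genes on a log axis, with 1 point for each mouse, coloured by group, and vertical lines between the roles (glutathione peroxidases, peroxiredoxins and sulfiredoxin, thioredoxin system, superoxide dismutases and catalase, glutathione synthesis and turnover, glutathione transferases, NRF2 regulation and NADPH, NADPH oxidase). Values run from below 1 FPKM for Cybb to above 100 FPKM for most peroxiredoxins, and the 3 groups do not overlap for Gpx3.

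The first comparison set CVST+Ligation against CVST, that is, thrombosis with node ligation against thrombosis alone. Gpx3 and Gstm7 were higher after ligation and Ncf4, a cytosolic regulator of the phagocyte oxidase, was lower, each at an unadjusted p below 0.05. Those 3 of 43 genes (6.98%) compare with 9.64% of all genes tested. In the higher direction there were 2, beside 5.47% of all genes, and in the lower direction 1, beside 4.18%. None passed an adjusted p of 0.05 (Benjamini-Hochberg over all genes) in edgeR's quasi-likelihood test, where 0.0203% of all genes did. DESeq2 called 1, Gpx3, beside 264 of 14746 genes, with an adjusted p of 0.0189, in a range of 0.0189 to 0.576 over the alternatives. Groups did not overlap for 4 genes (Ggt1, Gpx3, Gstm7 and Ncf4), beside 13.8% of all genes. The median log2 fold change of the 43 was −0.07, with 19 higher and 24 lower, and that of all genes 0.00. This split leaned on single libraries. Without CVST+Ligation replicate 2, 12 were higher and 31 lower, with Gpx1 and Gpx4 lower and Gpx3 higher at an unadjusted p below 0.05, beside 8.07% of all genes. Without CVST replicate 3, 22 were higher and 21 lower (median 0.00), and without CVST+Ligation replicate 1 the median was −0.01. Leaving out CVST replicate 1 gave 15 higher and 28 lower, and Gpx3 was then the only gene of the 43 at an unadjusted p below 0.05, beside 8.42% of all genes. Leaving out CVST replicate 2 gave a median of −0.03, as did library totals, and limma on FPKM a median of 0.01.

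The second comparison set 4-PBA against CVST+Ligation, with thrombosis and ligation in both groups. Gpx3, Gpx1 and Ggt1 were higher with 4-PBA at an unadjusted p below 0.05. Those 3 of 43 genes (6.98%) compare with 3.23% of all genes, all 3 in the higher direction, beside 1.81%, and 0 in the lower direction, beside 1.42%. None passed the adjusted threshold in edgeR, where 0% of all genes did, and DESeq2 called 0 of the 43 as well. Ggt1, Gpx3, Gsr and Txnrd2 did not overlap between the groups, 4 genes beside 7.73% of all genes. Of the 43, 34 were higher and 9 lower, with a median log2 fold change of 0.15 against −0.02 for all genes, of which 47.0% were higher. These counts leaned on single libraries. Without CVST+Ligation replicate 2, the library with the cerebellar markers, 39 of the 43 were higher, the median was 0.25 and 8 had an unadjusted p below 0.05 (Gpx3, Gpx1, Mgst1, Gpx8, Nfe2l2, Ggt1, Cat and Txnip), against 10% of all genes in that fit. Without CVST+Ligation replicate 1, 28 were higher, the median was 0.05 and 1 was called, beside 2.25% of all genes. Without CVST+Ligation replicate 3 the median was 0.09. Leaving out 4-PBA replicate 2 or 4-PBA replicate 3 also left 1, Gpx3, beside 1.72% and 3.99% of all genes, and without the latter the median was 0.09 with 30 higher. A correction for gene length gave a median of 0.09 with 33 higher. With library totals in place of the trimmed mean, 66.1% of the genes called over the whole table were higher, against 56.1%.

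The third comparison, 4-PBA against CVST, differs by ligation and treatment together and shares its libraries with the other two. Gpx3 rose, and was the 1 gene of the 43 past the adjusted threshold, beside 0.122% of all genes. Gstm7, Cat and Txnip were higher and Gsr lower at an unadjusted p below 0.05, which with Gpx3 gave 5 of 43 (11.6%) beside 15.4% of all genes. Higher genes numbered 4, beside 8.07%, and lower genes 1, beside 7.33%. The groups did not overlap for 8 genes (Cat, Gpx3, Gpx8, Gsr, Gstk1, Gstm7, Nqo1 and Txn2), beside 23.7% of all genes. The median log2 fold change was 0.08, with 29 higher and 14 lower, against −0.01 for all genes. It was 0.02, with 23 higher and 20 lower, without 4-PBA replicate 3, and 0.18, with 31 higher, without 4-PBA replicate 1. Without CVST replicate 1, 23 were higher, and without CVST replicate 3 the median was 0.15. With library totals the median was 0.16, and 7 genes were called higher and 0 lower, beside 15.4% of all genes called, and 65.1% of the called genes over the whole table were higher against 52.4%. The count was 2 without CVST replicate 1, beside 11.8% of all genes in that fit, and 2 without 4-PBA replicate 2, beside 10.7%. It was 8 without CVST+Ligation replicate 2, beside 19.1%, and 9 without CVST replicate 3, beside 16.3%.

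**Figure D2:**
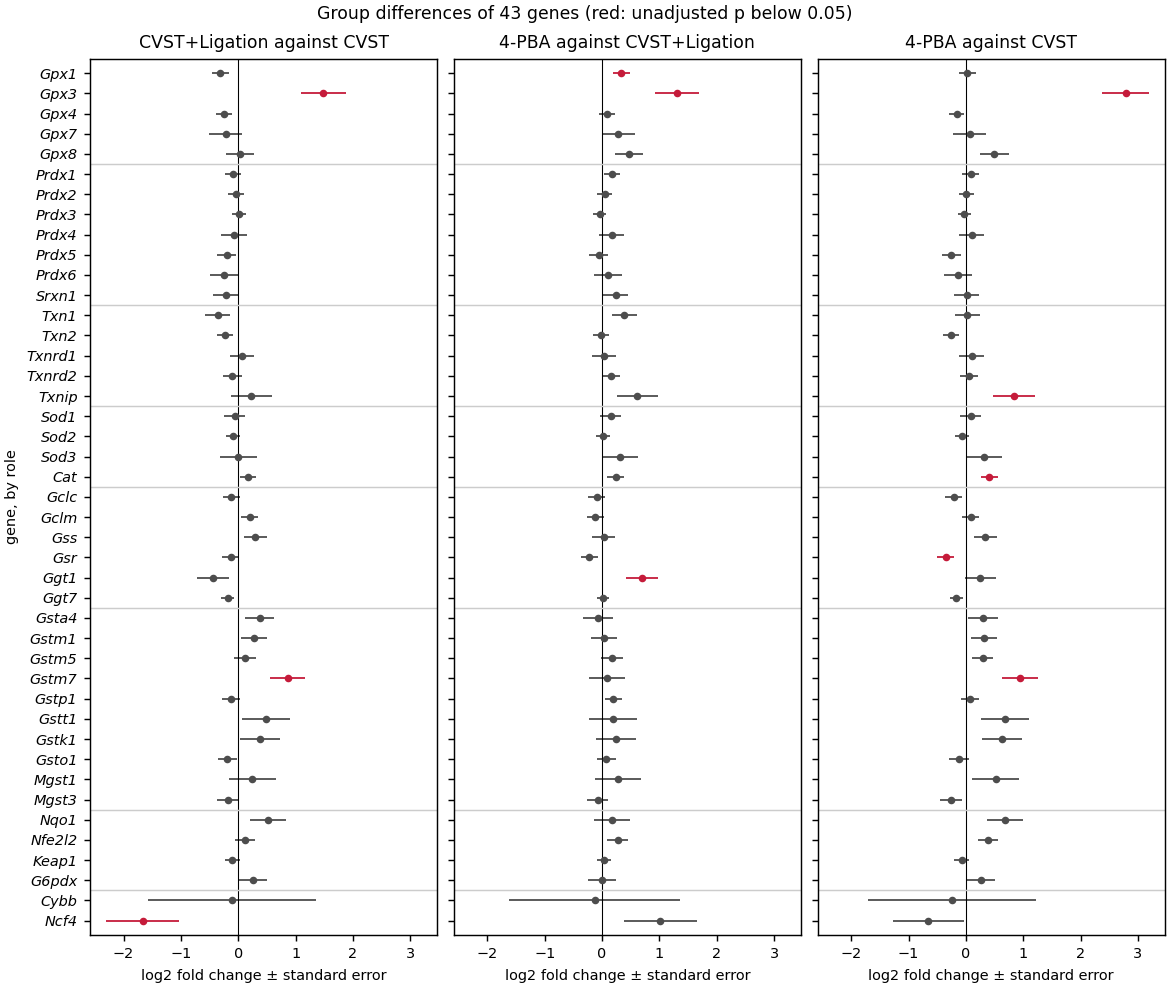
Log2 fold change with its standard error (edgeR, 3 mice a group) of each of the 43 genes in the 3 comparisons, drawn on 1 scale, with genes in red where the unadjusted p was below 0.05 and lines between the roles. Gpx3 lies to the right of 0 in every panel, at 1.48, 1.30 and 2.78, while most other genes lie within 0.5 of 0 and the error bars of Cybb span more than 1 on either side.

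Among the glutathione peroxidases, Gpx3 differed in every comparison. Gpx3 (ENSMUSG00000018339.11, chr11:54902453-54910377 of GRCm38, plus strand) encodes the secreted, plasma form. Its level was 6.37, 5.94 and 11.01 CPM in CVST, 12.6, 33.8 and 18.7 in CVST+Ligation and 41.6, 71.2 and 47.4 in 4-PBA. The 3 groups did not overlap, and the counts behind these values ran from 134 to 1691 a library. After ligation it was 2.79-fold higher than in CVST (log2 1.48, SE 0.39, adjusted p = 0.2997 by edgeR). With 4-PBA it was 2.46-fold above CVST+Ligation (log2 1.30, SE 0.38, adjusted p = 0.9998) and 6.88-fold above CVST (log2 2.78, SE 0.41, adjusted p = 0.0463). In all 19 alternatives its unadjusted p stayed below 0.05 in each comparison, but the adjusted p against CVST passed in 12 of them and ran from 1.73e-09 to 0.165. It was above 0.05 when any 1 of CVST replicates 1 or 2, CVST+Ligation replicate 3 or any 4-PBA replicate was left out, and when 10 counts were required in every library.

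Some region and cell markers differed between the groups in the direction of Gpx3 and others did not. A list of 8 thalamic genes summed to 73.5, 80.3 and 125 CPM in CVST, 260.1, 713 and 379 in CVST+Ligation and 638, 473 and 798 in 4-PBA. At an unadjusted p below 0.05, 6 of 8 were higher after ligation, beside 5.47% of all genes. With 4-PBA 7 of 8 were higher than in CVST, beside 8.07%. The library with the highest Gpx3 in CVST+Ligation, replicate 2, also had the highest thalamic sum of its group. In 4-PBA, replicate 2 had the highest Gpx3 and the lowest thalamic sum. The hypothalamic list summed to 5.19 to 42.1 CPM in CVST, 5.46 to 56.6 in CVST+Ligation and 297 to 579 in 4-PBA, with 5.46 in the replicate 2 that had the highest Gpx3 of its group. Meningeal fibroblast markers, 10 genes, summed to 154, 194 and 160.5 CPM in CVST, 268, 356 and 167 in CVST+Ligation and 256, 475 and 180.4 in 4-PBA. All 10 were in the higher direction in both comparisons with CVST. After ligation 0 were called, beside 5.47% of all genes called higher, and with 4-PBA 3, beside 8.07%. In CVST+Ligation and in 4-PBA their highest library was the one with the highest Gpx3, while in CVST it was replicate 2, which had the lowest Gpx3 of the 9. The choroid plexus and ependymal list summed to 804 to 1004, 37.2 to 876 and 472 to 3156 CPM, and its lowest value was in CVST+Ligation replicate 2. A list of 10 oligodendrocyte genes summed to 2735 to 3615, 2755 to 6184 and 4884 to 7816 CPM. In bulk tissue, more cells of a type and more RNA per cell cannot be told apart, and the part of these markers in the Gpx3 difference was not tested.

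**Figure D3:**
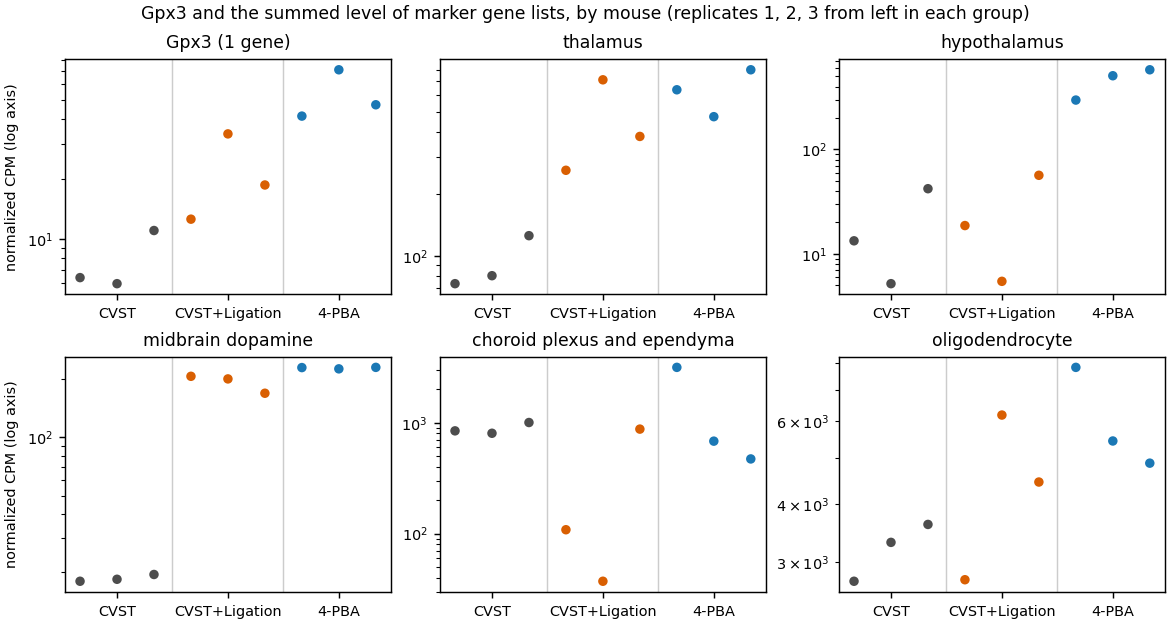
Level of Gpx3 and the summed level of 5 marker gene lists in each mouse (CPM, log axes that differ between panels), with replicates 1, 2 and 3 from left to right in each group. Gpx3 and the thalamic sum are lowest in the 3 CVST mice, the midbrain sum separates CVST from the other groups, and the hypothalamic sum separates 4-PBA from the other groups.

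The other peroxidases differed less. Gpx1, the cytosolic and mitochondrial form, was at 124, 114 and 120.4 CPM in CVST, 91.2, 117 and 80.3 in CVST+Ligation and 112, 121 and 130.1 in 4-PBA. CVST+Ligation replicates 1 and 3 were the lowest of the 9, while replicate 2 lay among the others, so the groups overlapped. With 4-PBA it was 1.26-fold above CVST+Ligation (log2 0.34, SE 0.15, adjusted p = 0.9998 by edgeR), a difference that kept its unadjusted call in 8 of 19 alternatives. Gpx4 was at 272, 284 and 348 CPM, then 222, 285 and 255, then 259.9, 268 and 279. Its log2 fold changes were −0.25, 0.08 and −0.16 in the order of the comparisons above. Gpx8, a peroxidase of the endoplasmic reticulum, was 6.84 to 11.7 CPM in CVST, 8.0 to 12.3 in CVST+Ligation and 12.1 to 14.3 in 4-PBA, and its log2 fold change against CVST was 0.50 (SE 0.25, adjusted p = 0.375), which was called at an unadjusted p below 0.05 in 6 of 19 alternatives. Gpx7, its relative in the same compartment, ranged from 3.51 to 6.29 CPM over the 9 libraries with no call.

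**Figure D4:**
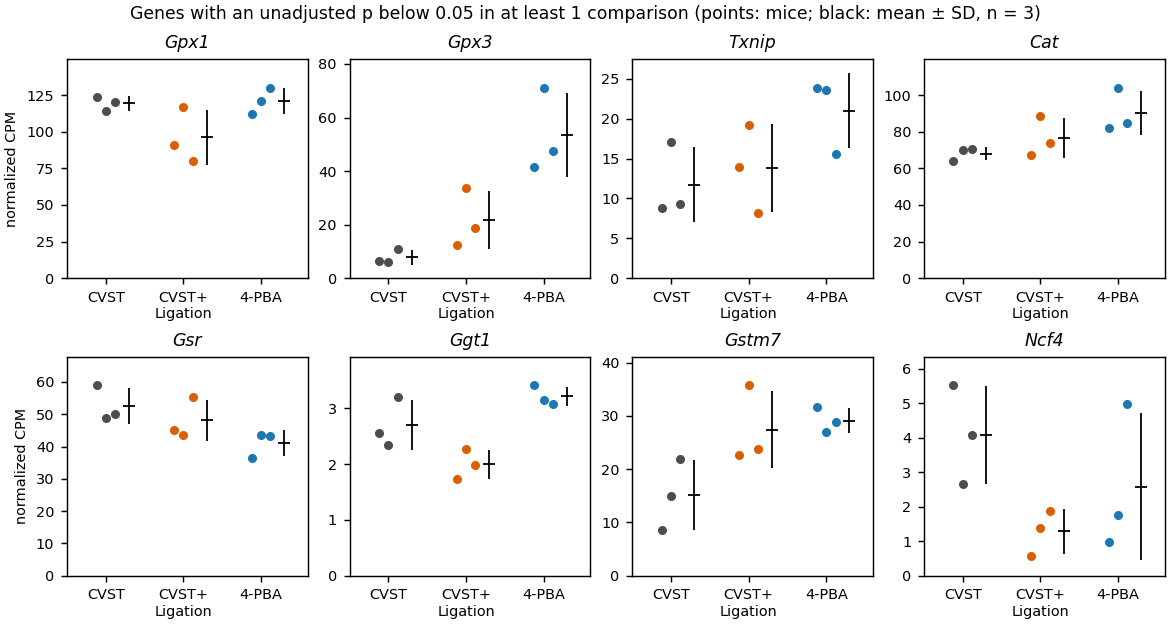
Level in CPM (axes start at 0) of 8 genes, each called at an unadjusted p below 0.05 in at least 1 comparison, with a point for each mouse and, in black, the mean ± SD of 3 mice. Gpx3 steps up from CVST to CVST+Ligation to 4-PBA without overlap, Ncf4 is lower in the 3 CVST+Ligation mice than in CVST, and the other genes show shifts of under 2-fold between group means.

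None of the 7 peroxiredoxin and sulfiredoxin genes was called in any comparison, beside 9.64%, 3.23% and 15.4% of all genes. Their log2 fold changes ran from −0.24 to 0.02 after ligation, from −0.06 to 0.23 for 4-PBA against CVST+Ligation and from −0.26 to 0.10 for 4-PBA against CVST. Prdx1 was at 308, 345 and 357 CPM in CVST, 274, 359 and 315 in CVST+Ligation and 319, 346 and 404 in 4-PBA. The lowest was CVST+Ligation replicate 1 and the highest 4-PBA replicate 3, and the groups overlapped. Srxn1, which repairs overoxidised peroxiredoxins and is a well known NRF2 target, ranged from 14.4 to 23.1 CPM, both ends of the range being CVST libraries. Prdx6, which reduces phospholipid peroxides, spread from 155 to 287 CPM within CVST alone.

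In the thioredoxin system 1 gene of 5 was called, for 4-PBA against CVST, beside 15.4% of all genes. Txnip, which binds thioredoxin and inhibits it, was at 8.84, 17.1 and 9.28 CPM in CVST, 13.9, 19.2 and 8.18 in CVST+Ligation and 23.9, 23.6 and 15.6 in 4-PBA. It was 1.79-fold higher with 4-PBA than in CVST (log2 0.84, SE 0.36, adjusted p = 0.305 by edgeR), with CVST replicate 2 above 4-PBA replicate 3. The call was lost without CVST replicate 1 or 3, CVST+Ligation replicate 1, or 4-PBA replicate 1 or 2. Between CVST+Ligation and CVST its log2 fold change was 0.23 (SE 0.36, adjusted p = 0.855). The exons of Txnip overlap a gene on the other strand, Gm15441, and while alignment was run with an orientation setting, no strand setting of the counting is stated. Txn1 was at 93.5, 87.4 and 124 CPM in CVST, 70.3, 71.3 and 96.3 in CVST+Ligation and 75.2, 117 and 119 in 4-PBA, with log2 fold changes of −0.36, 0.38 and 0.03. The mitochondrial genes Txn2 and Txnrd2 kept within 79.6 to 122 CPM and 16.02 to 22.5 CPM. Txnrd1 was lowest in CVST replicate 3, at 51.2 CPM, and 74.6 to 95.4 in the other 8 libraries.

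Among the superoxide dismutases and catalase, Cat was called in 1 comparison, 4-PBA against CVST, 1 gene of 4 beside 15.4% of all genes. Catalase was at 63.8, 69.8 and 70.4 CPM in CVST, 67.4, 88.6 and 73.8 in CVST+Ligation and 81.9, 104 and 84.7 in 4-PBA. All 3 of the 4-PBA mice were above all CVST mice (1.33-fold, log2 0.41, SE 0.15, adjusted p = 0.222 by edgeR). The call was lost without CVST replicate 1 or 4-PBA replicate 2. Sod1 was at 166, 189.7 and 276 CPM in CVST, 183, 209 and 213 in CVST+Ligation and 201 to 238 in 4-PBA, and its log2 fold changes were −0.06, 0.15 and 0.09. Its highest library and its lowest were both CVST. Sod2, the mitochondrial manganese enzyme, stayed between 97.0 and 124 CPM, and Sod3, the secreted enzyme, between 6.33 and 16.3 CPM.

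In glutathione synthesis and turnover, Ggt1 and Gsr were each called once, 1 of 6 genes for 4-PBA against CVST+Ligation, beside 3.23% of all genes, and 1 of 6 for 4-PBA against CVST, beside 15.4%. Ggt1, the cell surface enzyme that splits extracellular glutathione, was at 2.55, 2.35 and 3.201 CPM in CVST, 1.74, 2.27 and 1.98 in CVST+Ligation and 3.41, 3.16 and 3.09 in 4-PBA, on 42 to 81 counts a library. The CVST+Ligation libraries were below all others. With 4-PBA the level was 1.61-fold that of CVST+Ligation (log2 0.69, SE 0.28, adjusted p = 0.9998 by edgeR), and the same gene against CVST after ligation gave log2 −0.44 (SE 0.28, adjusted p = 0.640). For 4-PBA against CVST+Ligation its unadjusted p was above 0.05 without CVST+Ligation replicate 1 or 3 or any 4-PBA replicate, and with replicate number as a block. Gsr, glutathione reductase, was at 59.0, 48.7 and 49.96 CPM in CVST, 45.2, 43.7 and 55.4 in CVST+Ligation and 36.4, 43.5 and 43.4 in 4-PBA. It was 0.782-fold in 4-PBA relative to CVST (log2 −0.35, SE 0.15, adjusted p = 0.297), with no overlap, and kept that call in 9 of 19 alternatives, while Ggt1 kept its own in 13. Gclc and Gclm, the subunits of glutamate-cysteine ligase, were at 64.1 to 89.2 and 38.6 to 55.1 CPM and were not called. Gss, glutathione synthase, was 18.7 to 30.1 CPM in CVST and 24.8 to 32.2 in the other libraries. Ggt7, a member of the gamma-glutamyltransferase family and the highest of these 6 genes in FPKM, was at 106, 119 and 117 CPM, then 94.97, 106 and 100.1, then 101, 94.7 and 109.

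Gstm7, a mu-class glutathione transferase, was the gene called among the 10 transferases, in both comparisons with CVST, beside 9.64% of all genes after ligation and 15.4% with 4-PBA. It was at 8.63, 14.9 and 21.9 CPM in CVST, 22.7, 35.8 and 23.9 in CVST+Ligation and 31.6, 26.9 and 28.9 in 4-PBA. All CVST libraries were below the other 6, by a small margin for CVST replicate 3 and CVST+Ligation replicate 1. The level after ligation was 1.81-fold that of CVST (log2 0.86, SE 0.31, adjusted p = 0.423 by edgeR) and with 4-PBA 1.93-fold (log2 0.95, SE 0.31, adjusted p = 0.198). Between 4-PBA and CVST+Ligation the log2 difference was 0.09 (SE 0.31, adjusted p = 0.9998). The call after ligation was lost without CVST replicate 1, CVST replicate 2 or CVST+Ligation replicate 2, and the call with 4-PBA was kept in all 19 alternatives. Close relatives of Gstm7 lie beside it on chromosome 3 and may share reads with it. Gstm1 was at 169, 285 and 322.5 CPM in CVST, 298, 368 and 273 in CVST+Ligation and 324, 353 and 287 in 4-PBA. Its lowest library was CVST replicate 1, and so were those of Gsta4, Gstm5, Gstt1 and Gstk1.

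Of the 10 transferases, 7 were higher after ligation and 8 were higher with 4-PBA than in CVST, with median log2 fold changes of 0.26 and 0.31. Both comparisons share the CVST libraries. Without CVST replicate 1 the medians were 0.05 and 0.10, with 6 and 7 higher, and without CVST+Ligation replicate 2 the median after ligation was 0.04. Summed FPKM over the 10 was 882, 1279 and 1417 in CVST, 1193, 1527 and 1233 in CVST+Ligation and 1450, 1438 and 1352 in 4-PBA. The CVST replicate 1 sum was the lowest and the rest of CVST lay among the other groups. Mgst1, a membrane transferase, was at 27.0 CPM in CVST+Ligation replicate 2 and at 9.26 and 10.4 in the other mice of that group. Astrocyte markers, whose 12 genes summed to 2284 to 3593 CPM in CVST, 2814 to 4715 in CVST+Ligation and 2923 to 4186 in 4-PBA, were higher in many cases as well. After ligation 9 of the 12 were in the higher direction and 3 in the lower. Of the 12, 5 were called higher at an unadjusted p below 0.05, beside 5.47% of all genes. With 4-PBA against CVST 8 were in the higher direction and 4 in the lower, with 2 called higher, beside 8.07% of all genes called higher and 15.4% called in either direction. Within groups the sums did not follow each other throughout. In 4-PBA the astrocyte sum was highest in replicate 3, where the transferase sum was lowest, and in CVST it was highest in replicate 2, while the transferase sum was highest in replicate 3. In CVST+Ligation both were highest in replicate 2, and CVST replicate 1 was the lowest of the 9 libraries in both. Their part in the transferase values was not tested.

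**Figure D5:**
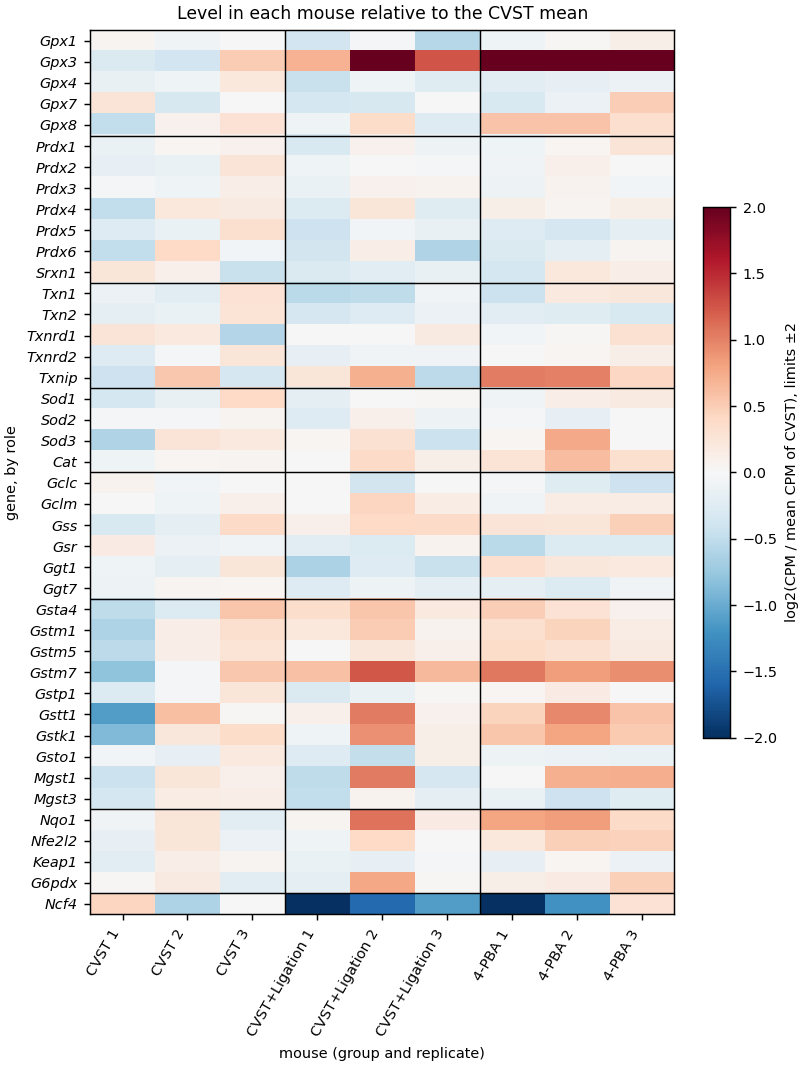
Level of 42 of the genes in each mouse as log2 of its CPM over the CVST mean (colour scale from −2 to 2, values beyond the limits drawn at the limit), with horizontal lines between roles and vertical lines between groups. Cybb is left out because it had counts of 0 in 3 libraries. Gpx3 reaches the upper limit in the 3 mice given 4-PBA and in CVST+Ligation replicate 2, Ncf4 reaches the lower limit in CVST+Ligation replicate 1 and 4-PBA replicate 1, and CVST+Ligation replicate 2 and CVST replicate 1 stand out from their groups in the transferase rows.

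None of Nfe2l2, Keap1, Nqo1 and G6pdx was called in the main edgeR fit, beside 9.64%, 3.23% and 15.4% of all genes in the 3 comparisons. Nfe2l2 and Nqo1 lay close to the threshold for 4-PBA against CVST. Each was called, higher, in 9 of 19 alternatives, some of them edgeR fits with other settings. Among these, 15.4% of all genes were called with library totals, 17.6% with DESeq2 and 17.9% with replicate number as a block. Nfe2l2 was at 31.0, 40.9 and 32.1 CPM in CVST, 32.5, 45.8 and 34.4 in CVST+Ligation and 40.0, 48.3 and 47.6 in 4-PBA. Its log2 fold change was 0.12 (SE 0.18) after ligation, 0.27 (SE 0.18) for 4-PBA against CVST+Ligation and 0.39 (SE 0.18, adjusted p = 0.344 by edgeR) against CVST. Keap1 was at 57.3, 73.1 and 68.9 CPM, then 60.8, 59.6 and 64.8, then 59.5, 68.4 and 61.5, with overlap in every comparison. Nqo1, a quinone reductase long used as a readout of NRF2, was 3.85 to 5.23 CPM in CVST, 4.63 to 9.48 in CVST+Ligation and 5.79 to 7.95 in 4-PBA, with a log2 fold change of 0.68 (SE 0.31, adjusted p = 0.340) between 4-PBA and CVST. G6pdx was at 65.1, 72.1 and 54.5 CPM in CVST, 55.7, 109.6 and 65.1 in CVST+Ligation and 69.5, 71.4 and 89.4 in 4-PBA, with CVST+Ligation replicate 2 the highest. The 11 genes with the TGACNNNGC core printed above had median log2 fold changes of 0.11, 0.17 and 0.25 in the 3 comparisons, and 7, 10 and 11 of them were higher. For the 26 genes whose promoters lacked it the medians were −0.09, 0.12 and 0.04, and 10, 21 and 16 were higher. Of all genes tested, 50.3%, 47.0% and 48.9% were higher. With 4-PBA against CVST, Srxn1 and Txnrd1 of the 11 were at log2 0.02 (SE 0.22) and 0.10 (SE 0.21). Both had their lowest value of the 9 libraries in CVST replicate 3, and Sod1 had its own in CVST replicate 1. The split was not repeated with libraries left out, and the comparisons share libraries. These counts describe the genes and were not tested.

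Of the 2 phagocyte oxidase genes, Ncf4 was called after ligation, beside 9.64% of all genes. It was at 5.52, 2.66 and 4.07 CPM in CVST, 0.579, 1.39 and 1.89 in CVST+Ligation and 0.975, 1.77 and 4.99 in 4-PBA, on 14 to 131 counts a library. All CVST+Ligation libraries were below all CVST libraries (0.315-fold, log2 −1.67, SE 0.64, adjusted p = 0.447 by edgeR). The call was kept in 15 of 19 alternatives and was lost without CVST replicate 1 or 3, or CVST+Ligation replicate 1 or 2. In 4-PBA, replicate 3 lay within the CVST range and the other libraries below it, and the log2 fold changes of 1.01 (SE 0.64) against CVST+Ligation and −0.65 (SE 0.62) against CVST were not called. Cybb had 0 to 18 counts a library, or 0 to 0.798 CPM, with 0, 18 and 2 counts within CVST alone, and was not called in any comparison. Microglial markers were also lower after ligation. Their 15 genes summed to 1319 to 1534 CPM in CVST, 1016 to 1067 in CVST+Ligation and 974 to 1331 in 4-PBA. After ligation 15 of 15 were lower and 11 of those 15 had an unadjusted p below 0.05, beside 4.18% of all genes called lower. The blood myeloid list summed to 14.4 to 65.6, 12.4 to 55.3 and 21.0 to 80.7 CPM, and 4-PBA replicate 3, with the highest Ncf4 of its group, had the highest microglial and myeloid sums of that group. In CVST and in CVST+Ligation the order was the opposite for microglia, where the library with the highest Ncf4 had the lowest microglial sum (1319 and 1016 CPM), and CVST replicate 2, with the lowest Ncf4 of its group, had the highest myeloid sum there. Fewer microglia and less RNA in each microglial cell cannot be told apart, and their part in the Ncf4 difference was not tested.

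In the wider pathways no gene passed the adjusted threshold. Counts at an unadjusted p below 0.05 are to be read against 9.64% of all genes after ligation, 3.23% for 4-PBA against CVST+Ligation and 15.4% for 4-PBA against CVST. Of 29 tested genes of other glutathione metabolism, 1 was lower after ligation, Ltc4s, which joins glutathione to a leukotriene (log2 −0.76, SE 0.26, adjusted p = 0.410 by edgeR). For 4-PBA against CVST+Ligation the list had 0 calls at an unadjusted p below 0.05, and against CVST 2 were higher and 3 lower, 5 of 29 beside 15.4% of all genes. Gstm6, another mu-class transferase, was higher by 1.31 on the log2 scale (SE 0.44) and Gstt3 by 1.92 (SE 0.70), at 0.495 to 2.06 CPM in 4-PBA. Slc3a2, the heavy chain of the cystine transporter, was at −0.42 (SE 0.15) and Hagh, a glyoxalase, at −0.41 (SE 0.18).

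Of 22 other thioredoxin and methionine sulfoxide genes, 0 were called after ligation, beside 9.64% of all genes, and 1, Oxr1, an oxidation resistance gene, was lower with 4-PBA than in CVST+Ligation (log2 −0.42, SE 0.17), beside 3.23%. For 4-PBA against CVST 3 were called, beside 15.4%. Selenop, the selenium carrier, was higher. It was at 156, 304 and 249 CPM in CVST, 288, 531 and 257 in CVST+Ligation and 498, 526 and 329 in 4-PBA (log2 0.93, SE 0.33, adjusted p = 0.220 by edgeR). Msra, a methionine sulfoxide reductase, and Selenow, a small selenoprotein, were lower, at −0.59 (SE 0.25) and −0.53 (SE 0.23). Gpx3 and Selenop both encode secreted selenoproteins. Among 35 other NRF2 targets and NADPH supply genes, 0 were called in either comparison with CVST+Ligation, and Idh1, which makes NADPH in the cytosol, was the 1 called with 4-PBA against CVST, where it was higher (log2 0.37, SE 0.15), beside 15.4%. Of 10 other NADPH oxidase genes, 9 were in the lower direction after ligation with 0 called, and Rac2, a small GTPase of the phagocyte oxidase, was lower with 4-PBA than in CVST (log2 −0.89, SE 0.33), 1 of 10 beside 15.4%, at 2.76 to 7.16 CPM against 7.82 to 9.14.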

How the data were processed

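The authors prepared total RNA with TRIzol, sequenced it in pairs on a NovaSeq X Plus, used fastp for quality control, HISAT2 in an orientation mode for alignment, StringTie for assembly and RSEM for abundance. Per the labels the build was mm10 (GRCm38). Versions, the program behind the whole-number counts and any strand setting of counting are not given in the sources used here. They deposited whole-number counts per gene and a matrix of expression values. The deposited matrix, called TPM in the methods, holds FPKM, since its values equalled count over length and library total with 1 whole length per gene (17446 genes). Counts were tested with edgeR 4.0.16 in R 4.3.3 (TMM factors, filterByExpr by group, quasi-likelihood F-test, 1 model over 3 groups, Benjamini-Hochberg over 14746 genes), and the procedure was checked on simulated data. The biological coefficient of variation was 0.287. With 3 mice against 3, an exact permutation test cannot go below p = 0.1. Alternatives used DESeq2 1.42.0, limma 3.58.1 on log2(FPKM + 1) and log2(FPKM + 0.1), other scalings and filters, the 2 groups compared alone, a replicate block and each library left out. A correction for gene length was added after seeing the data. Promoters are from RefSeq, gene positions from GENCODE. Genes described by mouse were those with an unadjusted p below 0.05 in any comparison, the most abundant of each role, and Nfe2l2, Keap1, Cybb and Ncf4. The 43 genes and all lists were chosen with earlier results of these data known. Of the 43, 7 overlap exons of a gene on the opposite strand. Figures were drawn with matplotlib 3.10.9.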

Additional observations from a re-analysis of the deposited data

How the results depend on the processing

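Of the 43 genes, none that was called in a comparison reversed direction there under any of the 19 alternatives. Reversals were not tallied for genes of the wider pathways. Over the libraries left out in turn, calls among the 43 genes at an unadjusted p below 0.05 ran from 1 to 4 for CVST+Ligation against CVST, from 1 to 8 for 4-PBA against CVST+Ligation and from 2 to 9 for 4-PBA against CVST, against 3, 3 and 5. The share of all genes called in those fits ran from 8.07% to 11.1%, from 1.72% to 10% and from 10.1% to 19.1%. The number past the adjusted threshold for 4-PBA against CVST ran from 0 to 1, was 0 when 10 counts were required in every library, and for CVST+Ligation against CVST was 1 with DESeq2. DESeq2 called 264, 22 and 855 genes of the whole table at an adjusted p of 0.05, against 3, 0 and 18. The cause was not tested. Same-numbered libraries correlated from −0.05 to 0.32 in their deviations from the group means, and not every library correlated best with its own number, so the numbers were not taken as pairs. The replicate block gave 4, 3 and 9 calls in the 3 comparisons, beside 12%, 3.53% and 17.9% of all genes. For 4-PBA against CVST+Ligation, Gpx1 and Ggt1 lost their call under it and Txnip and Txn1 gained one. Not all genes that changed sides lay near the threshold. In the main edgeR fit the unadjusted p was 0.134 for Txn1 after ligation and 0.141 for Gstt1 with 4-PBA against CVST. No scaling moved the median of all genes by over 0.1 on the log2 scale. With 3 mice a group, the 14 to 131 counts a library for Ncf4 and the 0 to 18 for Cybb limit what these 2 genes can show.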
